A study of Homo sapiens with 12 samples.

Results

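The 26S proteasome degrades proteins that carry ubiquitin chains. Its 20S core is a barrel of stacked rings of alpha subunits (PSMA genes) and beta subunits (PSMB genes), with the proteolytic sites inside the beta rings. The 19S regulatory particle, made of ATPases (PSMC genes) and non-ATPase subunits (PSMD genes), binds the end of the core, recognises ubiquitin, removes it and unfolds the substrate. Other caps (PSME genes) open the core without ATP, PSMF1 is an inhibitor of the core in vitro, and PSMG genes encode chaperones that assemble the rings. Beta cells make and fold large amounts of secreted protein, and depend on the proteasome to dispose of misfolded chains.

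Proteasome subunit genes were taken from the RNA table by symbol, as every row named PSMA, PSMB, PSMC, PSMD, PSME, PSMF or PSMG followed by a number. Of 35337 rows, 47 were analysed: 18 genes of the 20S core, 20 of the 19S particle, 5 activators and inhibitor genes, and 4 assembly chaperones of the 20S core. They were measured in EndoC-βH3 cells, a single beta-cell-like human line derived from fetal pancreas and labelled WT. All samples come from this line, which carries hTERT and SV40 large T antigen genes that a tamoxifen-activated Cre recombinase can remove. Senescent cells (n = 6) had received 4-OHT, an active form of tamoxifen, over 3 weeks, and non-senescent cells were controls (n = 6), so loss of the introduced genes, exposure to the drug and senescence cannot be told apart. The sample titles carry a batch letter, with 2 samples per group in batch A and 4 per group in batch B. In such bulk samples fewer cells of a type and less RNA per cell cannot be told apart either.

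RNA was read from the 3′ end of each transcript, and the deposited values are reads divided by a size factor for each library, called normalised read counts here. Libraries held 4672924 to 17106776 reads. Senescent libraries were deeper than non-senescent ones within each batch, with 13059934 to 17106776 against 8873569 to 12792199 reads in batch A and 5973370 to 7063264 against 4672924 to 5746836 in batch B, and the part of this in the results was not tested. Summed normalised read counts of 10 beta-cell markers were 518774 to 648124 in non-senescent and 662986 to 856467 in senescent libraries, with every marker detected. Those of 5 alpha- or delta-cell markers were 168711 to 292163 and 117455 to 148244, those of 5 acinar or ductal markers were 270.2 to 437 and 221 to 405, and those of 5 fibroblast markers were 12.4 to 27.8 and 12.1 to 27.5, and those of 4 leukocyte markers 20.7 to 51.1 and 13.5 to 42.0, with PDGFRB and CD3E at 0 reads in all 12 libraries. The summed beta-cell markers were thus higher, and the summed alpha- and delta-cell markers lower, in senescent libraries without overlap. Taken singly, 6 of the 10 beta-cell markers were higher and 2 were lower at a limma adjusted p under 0.1. Of the 5 alpha- or delta-cell markers 4 were lower and 0 higher at that limit. The part of these markers in the results below was not tested.

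With both batches in the fit, every proteasome subunit gene that passed was lower in senescent cells. Of the 44 members with a mean level of 5 normalised read counts or more, 24 were lower at an adjusted p under 0.1, 0 were higher and 20 did not pass. Among all 13847 genes tested, 22.3% were lower and 23.2% were higher at the same limit. The median log2 fold change (senescent over non-senescent) was -0.27 over the members and 0.01 over all tested genes, and the members that passed ran from -1.06 to -0.21. Only 4 members also exceeded a fold change of 1.5, namely PSMC3, PSMB2, PSMB3 and PSME1, all lower. Over all genes 11.8% were lower and 11.6% higher at that stricter limit. The test was limma with batch as a term. edgeR gave 24 lower and 0 higher members and DESeq2 24 and 1 (PSMC6), and 0 members were higher at an unadjusted p under 0.05 in limma.

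**Figure D1:**
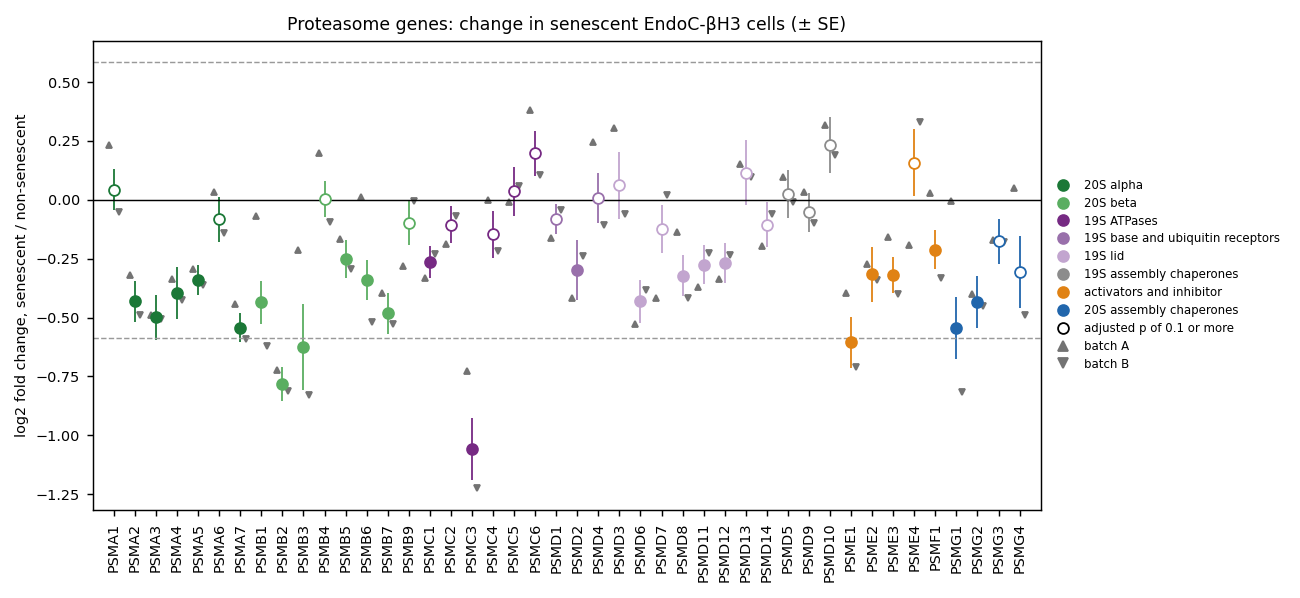
Log2 fold change of each tested proteasome gene in senescent over non-senescent EndoC-βH3 cells (circles, ± SE, n = 6 per group; filled where the limma adjusted p is under 0.1), with the change in batch A (upward triangles) and batch B (downward triangles). Dashed lines mark a fold change of 1.5 either way; 11 of 15 genes of the 20S core and 7 of 20 of the 19S particle are filled, all under 0.

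Members were also compared within each batch. In 13 of the 44 members each batch on its own had all senescent libraries under all non-senescent ones, and in 0 members above them. In batch A, PSMA1, PSMB4, PSMC6, PSMD3 and PSMD5 had both senescent libraries above both non-senescent ones, and with that batch alone PSMA1, PSMB4 and PSMC6 passed as higher; in batch B the groups overlapped for all 5. Of all tested genes, 11.9% had all senescent libraries under all non-senescent ones in each batch on its own, and 11.9% had them above. The batches gave a fold change of the same sign for 31 of 44 members, with 28 negative in both, and for 70.4% of all tested genes, so the share of same signs was near the background. Pearson's r between the log2 fold changes of the 2 batches was 0.56 across these 44 genes and 0.65 across all tested genes; genes are not independent of each other.

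The 4 members past the 1.5-fold limit belong to different parts of the particle. PSMC3 (RPT5) is an ATPase of the 19S base, PSMB2 and PSMB3 are non-catalytic beta subunits of the 20S core, and PSME1 is a subunit of the PA28 activator cap. In RefSeq (GRCh38.p14) PSMC3 lies on chromosome 11 from 47418775 to 47426439, PSMB2 on chromosome 1 from 35599541 to 35641526, PSMB3 on chromosome 17 from 38752741 to 38764225, and PSME1 on chromosome 14 from 24136194 to 24138962. Their promoters, the 250 bases before the RefSeq start, are shown because these are the members past the 1.5-fold limit. The windows are chr11:47426440-47426689 (minus strand) for PSMC3, chr1:35641527-35641776 (minus) for PSMB2, chr17:38752491-38752740 (plus) for PSMB3 and chr14:24135944-24136193 (plus) for PSME1. Capitals mark matches on either strand to CCAAT (the CCAAT box), TGACNNNGC (the core of the antioxidant response element, which NFE2L1 and NFE2L2 bind), TTTGAA (the cell cycle homology region) and GGCGGGAA (an E2F site), and no match overlaps another.
PSMC3: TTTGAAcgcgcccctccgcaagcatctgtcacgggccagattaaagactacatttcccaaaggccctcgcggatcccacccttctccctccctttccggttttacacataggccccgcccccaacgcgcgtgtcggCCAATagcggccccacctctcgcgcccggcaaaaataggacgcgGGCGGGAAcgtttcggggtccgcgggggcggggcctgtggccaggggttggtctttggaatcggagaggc
PSMB2: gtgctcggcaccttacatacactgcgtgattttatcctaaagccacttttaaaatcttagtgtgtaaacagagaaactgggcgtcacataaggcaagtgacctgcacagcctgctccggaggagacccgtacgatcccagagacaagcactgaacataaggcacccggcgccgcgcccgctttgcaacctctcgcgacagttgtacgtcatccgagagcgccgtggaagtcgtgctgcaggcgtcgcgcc
PSMB3: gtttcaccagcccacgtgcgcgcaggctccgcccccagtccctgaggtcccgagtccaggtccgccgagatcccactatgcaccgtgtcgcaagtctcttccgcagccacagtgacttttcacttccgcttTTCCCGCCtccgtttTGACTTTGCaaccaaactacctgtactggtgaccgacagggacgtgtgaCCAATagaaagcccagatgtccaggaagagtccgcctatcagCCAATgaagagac
PSME1: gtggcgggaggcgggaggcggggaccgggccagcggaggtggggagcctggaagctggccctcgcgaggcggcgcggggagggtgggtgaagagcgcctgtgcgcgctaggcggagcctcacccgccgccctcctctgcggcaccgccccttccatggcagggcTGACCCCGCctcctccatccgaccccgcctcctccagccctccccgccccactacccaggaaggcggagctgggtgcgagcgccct
The PSMC3 window holds the cell cycle homology letters, a CCAAT box and the E2F letters. The PSMB3 window holds 2 CCAAT boxes, the response element core and the E2F letters, the PSME1 window holds the response element core, and the PSMB2 window holds 0 of the 4 motifs. RefSeq promoters were found for 41 of the 47 members (49 promoters). CCAAT was in 38.8% of them against 32% of all 35116 promoters, TGACNNNGC in 26.5% against 10.9%, TTTGAA in 10.2% against 13.3%, and GGCGGGAA in 10.2% against 2.72%. Counted by gene among members with a promoter sequence, TGACNNNGC was in 7 of 20 that were lower and 6 of 18 that did not pass. For CCAAT these counts were 11 of 20 and 7 of 18, for TTTGAA 3 and 1, and for GGCGGGAA 3 and 2. The differences were not tested. These counts describe letters and not sites of binding.

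PSMC3 had the largest decrease among the members. Its normalised read count was 193 at the lowest, 235 at the median and 363 at the highest non-senescent library, and 79.0, 105 and 189 in senescent libraries. Every senescent library was under every non-senescent one, also within each batch. The log2 fold change was -1.06 ± 0.13 (SE; limma adjusted p 6.22e-06), with -0.73 in A and -1.22 in B. The other ATPases of the ring did not move alike. PSMC1 fell (-0.27 ± 0.07, limma adjusted p 0.00502), while PSMC2, PSMC4, PSMC5 and PSMC6 did not pass and had log2 fold changes from -0.15 to 0.20.

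PSMB2 was lowered to a like extent in each batch. Non-senescent libraries held 1162, 1278 and 1504 normalised read counts at the lowest, median and highest, and senescent libraries 702, 736 and 847. The groups were far apart, with batch A at 721 and 711 and batch B at 702 to 847 in senescent cells. The log2 fold change was -0.78 ± 0.07 (limma adjusted p 2.23e-07), at -0.72 in A and -0.81 in B, so that its level fell by 41.8%.

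PSMB3 varied more between libraries. It had 155, 229 and 321 normalised read counts in non-senescent and 98.7, 144 and 285 in senescent libraries, and the groups overlapped in each batch. The log2 fold change was -0.62 ± 0.18 (limma adjusted p 0.0119), the largest SE among the members, with -0.21 in A and -0.83 in B. Without non-senescent replicate B4 or without senescent replicate B2 or B4 its fold change no longer exceeded 1.5.

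**Figure D2:**
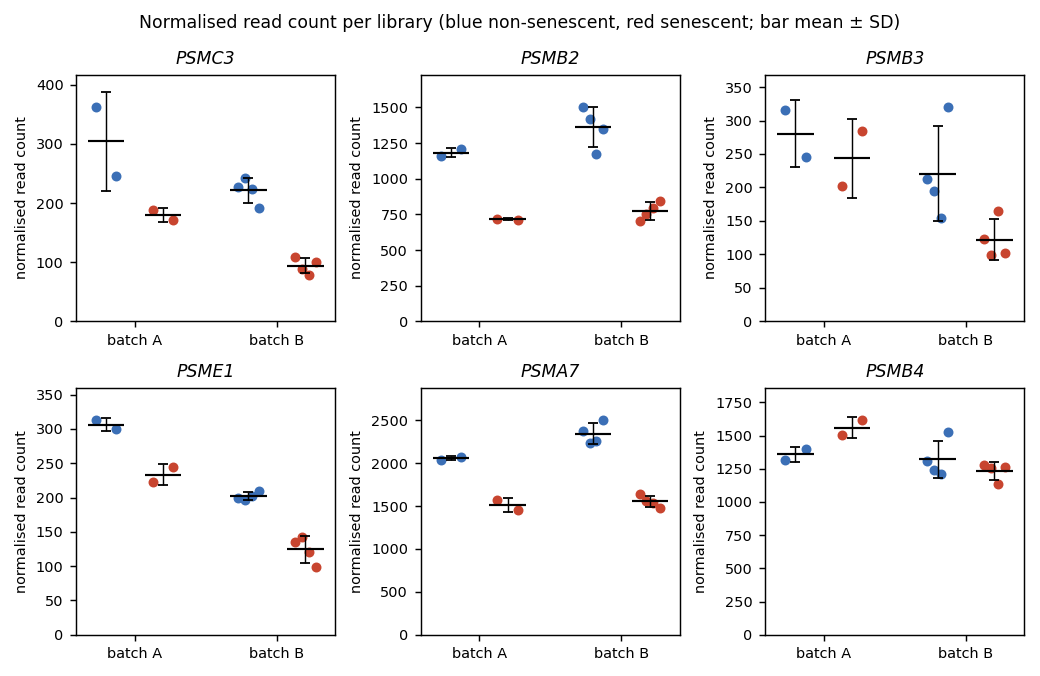
Normalised read count of 6 proteasome genes in each of the 12 libraries (blue, non-senescent; red, senescent; bars, mean ± SD of 2 libraries in batch A and 4 in batch B). PSMC3, PSMB2, PSME1 and PSMA7 do not overlap between groups within either batch, PSMB3 overlaps in both, and PSMB4, chosen after its values were seen to show a member near 0 change, is higher in senescent cells of batch A and overlaps in batch B.

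The 20S core was lowered broadly. Of its 15 tested members 11 were lower, with a median log2 fold change of -0.40 (-0.28 in A and -0.49 in B), and 6 did not overlap in either batch. Among all tested genes 22.3% were lower, and 11.9% were lower without overlap in either batch. Of the alpha subunits, which form the outer rings and the gate, 5 of 7 were lower: PSMA2, PSMA3, PSMA4, PSMA5 and PSMA7, from -0.54 to -0.34. PSMA1 (0.04 ± 0.09) and PSMA6 (-0.08 ± 0.10) did not pass. PSMA7 had 2042, 2248 and 2504 normalised read counts at the lowest, median and highest in non-senescent libraries and 1455, 1548 and 1643 in senescent libraries, a gap without overlap. Its log2 fold change was -0.54 ± 0.06 (limma adjusted p 1.75e-06), with -0.44 in A and -0.59 in B.

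Of the beta subunits, 6 of 8 tested were lower, among them all of the constitutive proteolytic subunits. PSMB5, which carries the chymotrypsin-like site, had 555, 679 and 861 normalised read counts in non-senescent and 486, 516 and 775 in senescent libraries. The groups overlapped when pooled, but within each batch every senescent library was lower, with a log2 fold change of -0.25 ± 0.08 (limma adjusted p 0.0199; -0.17 in batch A, -0.29 in batch B). PSMB7, with the trypsin-like site, fell from 370.4, 433 and 681 to 253, 310.5 and 487 normalised read counts (-0.48 ± 0.09, limma adjusted p 2.76e-04). It was lower without overlap in each batch, at -0.40 in A and -0.53 in B.

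PSMB6, with the caspase-like site, decreased in batch B and not in batch A, a difference tested below. In batch A it had 709 and 748 normalised read counts in non-senescent and 746 and 722 in senescent libraries, which interleave. In batch B it had 1539 to 1717 in non-senescent and 1076 to 1209 in senescent libraries, with a wide gap. The log2 fold change was 0.01 in A and -0.52 in B (-0.34 ± 0.09 with both, limma adjusted p 0.00436).

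Of the immune and tissue-restricted subunits of the core that were analysed, PSMB9 alone had enough reads to test. PSMB9, the interferon-induced subunit that replaces PSMB6 in immunoproteasomes, had 120.0, 453 and 511 normalised read counts at the lowest, median and highest in non-senescent and 89.4, 441 and 553 in senescent libraries. Its log2 fold change was -0.10 ± 0.10 (limma adjusted p 0.447), with -0.28 in A, where the groups did not overlap, and -0.01 in B, where they did. The log2 ratio of PSMB9 to PSMB6 was -2.63 to -2.54 in non-senescent and -3.00 to -2.76 in senescent libraries of batch A, and -1.92 to -1.59 and -1.44 to -0.96 in batch B. It thus moved down in A and up in B, and the mean change of 0.24 was not distinguishable (two-sided exact permutation test within batch, p 0.143 over 420 arrangements, of which the smallest p is 0.00476; 1 pair tested). PSMB10, the induced counterpart of PSMB7, had 38 reads over the 6 controls and 43 over the 6 senescent libraries, all but 2 of them in batch A, and was too low to test or to set against PSMB7. PSMA8, found mainly in testis, had 3 reads in each group. PSMB11, a thymus subunit, had 0 reads in all 12 libraries, which allows up to 3 reads per library, or 0.175 to 0.642 ppm of the reads; this covers counting error only.

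The 19S particle was lowered in part. Of its 20 members 7 (35.0%) were lower, against 22.3% of all tested genes, with a median log2 fold change of -0.11 (-0.15 in A and -0.08 in B). In 4 members the groups did not overlap in either batch, where 11.9% of all tested genes were lower in that way. Those 4 were PSMC1, PSMC3, PSMD6 and PSMD8. Besides PSMC1 and PSMC3, the lower members included PSMD2, a scaffold of the base (-0.30 ± 0.13, limma adjusted p 0.0786). The rest were the lid subunits PSMD6 (-0.43 ± 0.09), PSMD8 (-0.32 ± 0.09), PSMD11 (-0.27 ± 0.08) and PSMD12 (-0.27 ± 0.09), with limma adjusted p from 0.00129 to 0.0192. The other lid subunits PSMD3, PSMD7, PSMD13 and PSMD14, the last of which is the deubiquitinase of the lid, ran from -0.12 to 0.12 without passing. The scaffold PSMD1 (-0.08 ± 0.07) and the ubiquitin receptor PSMD4 (0.01 ± 0.11) did not pass either. Of the assembly chaperones of the base, PSMD5, PSMD9 and PSMD10, 0 of 3 passed, with -0.05 to 0.23. Without these the 19S particle had 7 of 17 lower and a median of -0.12. All these counts leave out the lid subunit SEM1 and the ubiquitin receptor ADRM1, whose symbols differ. Both were lower and are given below among the associated factors, of which 5 of 13 were lower and 1 higher.

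In every senescent library the 20S core was further below its controls than the 19S particle. The mean log2 value of the 15 genes of the 20S core, relative to the non-senescent libraries of the same batch, was -0.22 in both senescent libraries of batch A and -0.45 to -0.40 in those of batch B, where non-senescent libraries ranged from -0.12 to 0.11. For the 20 genes of the 19S particle it was -0.13 to -0.10 in batch A and -0.21 to -0.12 in batch B, with non-senescent libraries at -0.05 to 0.11. Every senescent library lay under the non-senescent libraries of its batch in both particles, and the difference between the particles was not tested. Reads of the 20S core made up 0.152% to 0.155% of the non-senescent and 0.118% to 0.121% of the senescent libraries in batch A, and 0.191% to 0.210% against 0.138% to 0.145% in batch B. For the 19S particle the shares were 0.121% to 0.125% against 0.0977% to 0.10% in batch A and 0.125% to 0.135% against 0.108% to 0.114% in batch B.

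**Figure D3:**
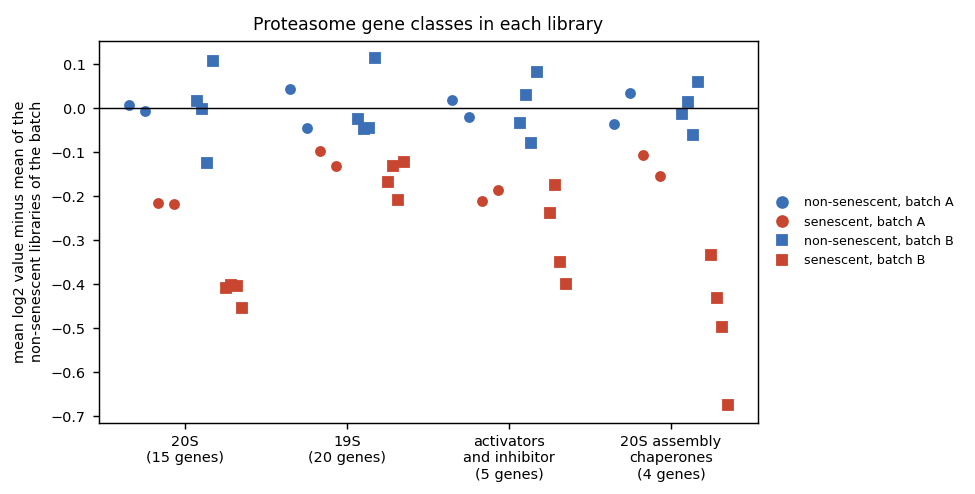
Mean log2 value of the tested genes of each class in each library, minus the mean of the non-senescent libraries of the same batch (blue, non-senescent; red, senescent; circles, batch A; squares, batch B). Senescent libraries lie under the non-senescent ones of their batch in each of the 4 classes, at -0.45 to -0.22 for the 20S core and -0.21 to -0.10 for the 19S particle.

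A scaling of whole libraries moves all genes nearly alike. When every library was scaled to the same total, the median of all genes moved from 0.01 to -0.09, that of the 20S core to -0.50 and that of the 19S particle to -0.21. Relative to the median of all genes the 20S core was at -0.41 and the 19S particle at -0.12 under either scaling, as this construction fixes. The count of lower members of the 19S particle rose from 7 to 12, and that of members past the 1.5-fold limit from 4 to 8. The sign of 6 members turned under that scaling and of 2 (PSMB4 and PSMD4) under upper-quartile scaling, and none of them had passed.

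Among activators and the inhibitor, 4 of 5 were lower, against 22.3% of all tested genes, with a median log2 fold change of -0.32. PSME1 and PSME2 form the heteromeric PA28 cap, which is induced by interferon. PSME1 had 197, 206 and 313 normalised read counts at the lowest, median and highest in non-senescent and 98.4, 139 and 244 in senescent libraries, lower without overlap within each batch (-0.60 ± 0.11, limma adjusted p 2.76e-04; -0.39 in A, -0.71 in B). Its fold change fell under 1.5 without non-senescent replicate B4, without senescent replicate B4, with DESeq2 and with a pseudocount of 8. PSME2, whose gene lies beside PSME1 on chromosome 14 (24143365 to 24146610), had 501 and 518 in batch A and 101 to 143 in batch B non-senescent libraries, against 408 and 435 and then 82.4 to 119 in senescent libraries. It did not overlap in A, overlapped in B and gave -0.32 ± 0.12 (limma adjusted p 0.0432).

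PSME3, the nuclear PA28 gamma, had 1475, 1629 and 1821 normalised read counts in non-senescent and 1190.0, 1317 and 1477 in senescent libraries (-0.32 ± 0.08, limma adjusted p 0.00274). It was lower without overlap within each batch. PSMF1 had 1428, 1644 and 1972 in non-senescent and 1099, 1348 and 1925 in senescent libraries, with -0.21 ± 0.08 (limma adjusted p 0.0514). It changed by 0.03 in A and -0.33 in B. PSME4, the PA200 cap, had 84.0, 102 and 203 against 92.2, 138 and 184, with a log2 fold change of 0.16 ± 0.14 that did not pass (limma adjusted p 0.414; -0.19 in A, 0.33 in B).

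Of the 4 assembly chaperones of the 20S core, PSMG1 and PSMG2, which act as a pair on the alpha ring, were lower, and PSMG3 (-0.18 ± 0.10) and PSMG4 (-0.31 ± 0.15), the other pair, did not pass. PSMG2 had 262, 297 and 322 normalised read counts in non-senescent and 163, 222 and 257 in senescent libraries (-0.43 ± 0.11, limma adjusted p 0.0047), lower in each batch. PSMG1 had 228, 246 and 297 in non-senescent and 136, 161 and 243 in senescent libraries. Its log2 fold change of -0.55 ± 0.13 (limma adjusted p 0.00322) came from batch B, as described next.

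The senescence change differed between batches for 3 of 44 members by the interaction of batch and group (limma adjusted p under 0.1), which 4.21% of all tested genes passed. PSMB1, a non-catalytic beta subunit, had 1057 and 980 normalised read counts in non-senescent and 987 and 953 in senescent libraries of batch A, and 1061 to 1278 against 721 to 759 in batch B. The log2 fold change was -0.07 in A and -0.62 in B (interaction -0.55 ± 0.13, limma adjusted p 0.0350). For PSMB6 the interaction was -0.53 ± 0.12 (limma adjusted p 0.0289). PSMG1 was at 239 and 228 against 243 and 223 in batch A and at 237 to 297 against 136 to 166 in batch B, with log2 fold changes of -0.003 and -0.82 (interaction -0.81 ± 0.19, limma adjusted p 0.0374). In each of the 3 the decrease was larger in batch B. The count rests on batch A, since it was 1 without either non-senescent library of that batch and 0 without either senescent one.

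**Figure D4:**
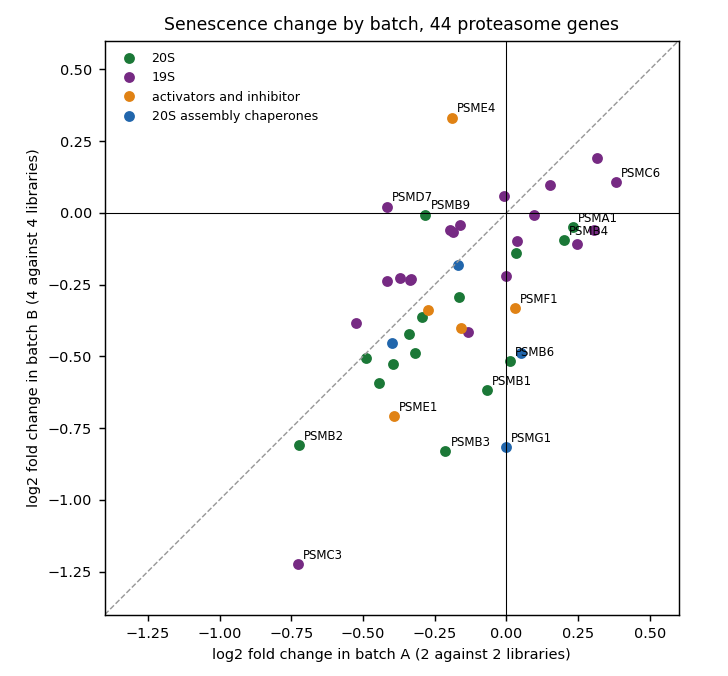
Log2 fold change of the 44 tested proteasome genes in batch A (x axis, 2 against 2 libraries) and batch B (y axis, 4 against 4 libraries), by class; the dashed line marks equal change. Pearson's r is 0.56, 28 genes are negative in both batches, and PSMB1, PSMB6 and PSMG1 lie near 0 in batch A and at -0.82 to -0.52 in batch B.

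Levels also differed between batches within the non-senescent group. In non-senescent libraries 8 of 44 members were over 2-fold apart between batches, against 33.8% of all tested genes, and the median absolute log2 difference was 0.30 for the members and 0.68 for all tested genes. PSMA3, PSMA5, PSMB6, PSMB9 and PSMD11 were higher in batch B and PSMD6, PSME2 and PSME4 were higher in batch A. The largest differences were those of PSME2 (log2 -2.07, B minus A) and PSMB9 (1.98), both interferon-induced genes, which lay on opposite sides.

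Reads of proteasome pseudogenes, which resemble the members and could take or give reads, were few. The table has 32 such rows, of which 17 had reads and 0 were tested, and together they held 120 reads against 317778 of the members. Of these, PSMC1P5 held 100, with 0 in batch B.

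Genes that work with the proteasome were also counted by direction. Of 50 genes in 4 lists (associated factors, transcriptional control, ubiquitin and delivery, and immunoproteasome regulation with peptide transport), 47 were tested, 12 (25.5%) were lower and 6 higher, and the median log2 fold change was 0.11. Against the 22.3% lower and 23.2% higher of all tested genes, the lower share is near the background and the higher count is under it. The lists were 5 lower and 1 higher of 13 associated factors (median -0.11), 2 lower and 2 higher of 10 genes of transcriptional control (0.14), 4 lower and 3 higher of 18 genes of ubiquitin and delivery (0.03), and 1 lower and 0 higher of 6 tested genes of immunoproteasome regulation (0.24). In this last list edgeR also gave 0 higher and DESeq2 gave 2, and 1 was higher at an unadjusted p under 0.05.

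Of the factors that build or join the particle, 5 of 13 were lower, 1 was higher and 7 did not pass. POMP, the maturation factor of the 20S core, had 757, 922 and 1411 normalised read counts at the lowest, median and highest in non-senescent and 563, 652 and 909 in senescent libraries. It was lower without overlap in each batch, with a log2 fold change of -0.51 ± 0.07 (limma adjusted p 3.39e-05; -0.56 in A, -0.48 in B). AKIRIN2, which carries proteasomes into the nucleus, had 72.3, 85.9 and 101 against 32, 60.4 and 70.5 (-0.65 ± 0.18, limma adjusted p 0.00909). The other associated factors that were lower were the ubiquitin receptor ADRM1 (-0.59), the lid subunit SEM1 (-0.43) and the deubiquitinase USP14 (-0.23), chosen after their values were seen. ECPAS, the adaptor that links the 19S particle to the core, was the only associated factor that passed as higher. It rose from 198, 209 and 349.6 to 293, 320.3 and 438 (0.49 ± 0.09, limma adjusted p 2.76e-04), above the non-senescent libraries within each batch.

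Of the genes of transcriptional control, NFE2L1 rose. It encodes the membrane-bound transcription factor that turns on proteasome subunit genes when proteasome activity is short. It had 87.3, 119 and 245 normalised read counts in non-senescent and 169, 190.5 and 361 in senescent libraries, higher without overlap within each batch. The log2 fold change was 0.70 ± 0.11 (limma adjusted p 5.06e-05), with 0.65 in A and 0.72 in B. MAFK, a small MAF partner of that factor, rose by 0.73 ± 0.26 (limma adjusted p 0.0317; 0.13 in A, 1.04 in B). MAFF, another small MAF, chosen after its values were seen, fell by 0.40 on the log2 scale (limma adjusted p 0.0114), and MAFG was at 0.02 without passing. KEAP1, which holds NFE2L2 in check, fell by 0.41 on the log2 scale (limma adjusted p 0.0240). NFE2L1 RNA says nothing of its processed protein.

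Of the genes of ubiquitin and delivery, 4 of 18 were lower and 3 higher. UBQLN2, a shuttle between ubiquitin chains and the proteasome, had 64.4, 152 and 166 normalised read counts in non-senescent and 85.7, 257 and 418 in senescent libraries, higher within each batch without overlap (0.72 ± 0.14, limma adjusted p 6.62e-04). UFD1, a cofactor of the segregase VCP, had 222, 258 and 511 against 119.6, 164 and 303 (-0.73 ± 0.10, limma adjusted p 1.43e-05; -0.76 in A, -0.71 in B), and VCP itself, chosen after its values were seen, rose by 0.27. In the list of immunoproteasome regulation, the peptide transporter subunit TAP2 fell from 4.97, 11 and 39.2 to 1.05, 3.63 and 7.47 (-1.82 ± 0.48, limma adjusted p 0.00584), on 90 reads in the 6 controls and 24 in the 6 senescent libraries.

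**Figure D5:**
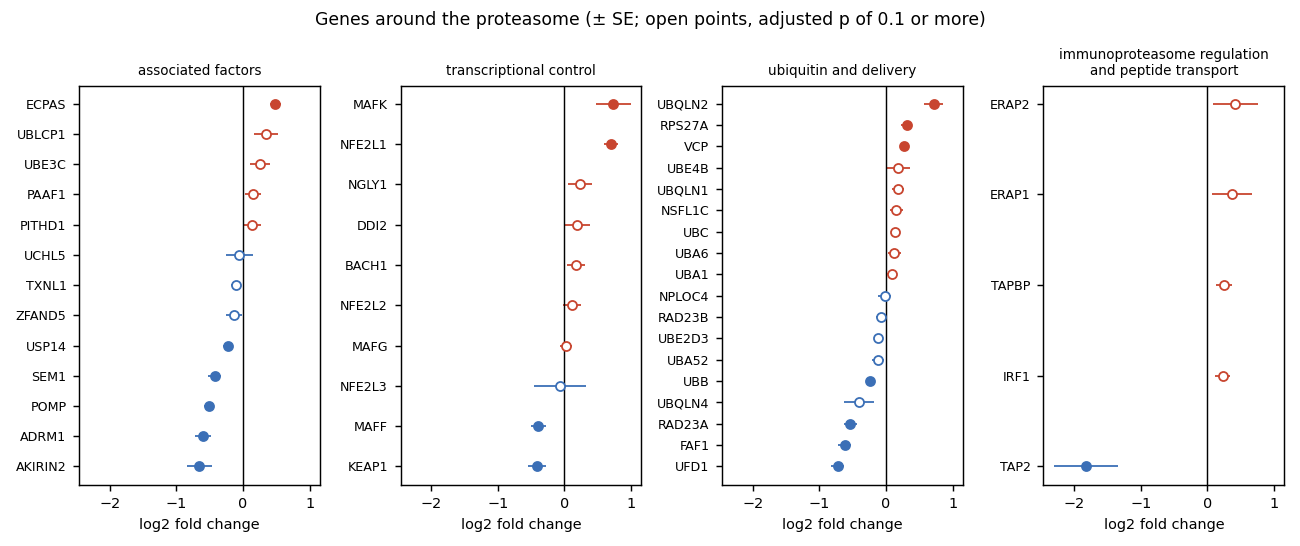
Log2 fold change (± SE, n = 6 per group) of 46 of the 47 tested genes that work with the proteasome, in 4 lists (blue, negative; red, positive; filled, limma adjusted p under 0.1). POMP (-0.51) and AKIRIN2 (-0.65) lie left of 0, NFE2L1 (0.70) and ECPAS (0.49) right of it, and TAP2 (-1.82) has the widest error.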

How the data were processed

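RNA 3′ ends were profiled by CEL-seq in 12 samples of EndoC-βH3 cells, 6 senescent and 6 non-senescent, grouped by their titles. Per the methods and submitters' processing notes, Cutadapt trimmed the reads, Salmon 0.13.1 assigned them to genes (GRCh38), and the authors normalised the result with DESeq2. The annotation, strand setting and use of molecular identifiers are not given in the sources used here, so reads may not be independent molecules. The deposited values are a signal, reads per gene divided by a size factor per sample, and 100% of 196021 non-zero values gave whole reads within 0.01. The deposited log2 fold changes and their errors, the test statistic (a score) and the p-values are the authors' own DESeq2 comparison and were not used.

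Members and gene lists were chosen with earlier results of these data known. One further subunit row was not analysed here, and 1 gene of the pathway lists is counted but not reported singly. The main test was limma 3.58.1 (R 4.3.3, intensity trend, Benjamini-Hochberg) on log2(normalised read count + 1), with batch and group as terms, for 13847 genes with a mean of at least 5. Fold changes on this scale understate those of low genes. Genes named singly were members past the 1.5-fold limit, the 4 largest changes without overlap in either batch, members that differed between batches, catalytic, induced and tissue-restricted subunits, activators and the inhibitor, and per pathway list the largest passed rise and fall with NFE2L1 and POMP. Alternatives varied the pseudocount, filter, scaling, batch and block terms, trend, tool (edgeR 4.0.16 and DESeq2 1.42.0 on recovered reads) and left-out libraries. The procedure was tested on simulated data. Libraries of 1 group and batch differed by more than read-counting noise (chi-square over its degrees of freedom 4.28 to 8.05), which amplified repeats could also do, and were counted as separate samples. No source says that samples were separate cultures, so p-values measure only the spread between these samples. Sequences and gene positions are from RefSeq (GRCh38.p14).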

Additional observations from a re-analysis of the deposited data

Results flagged for a closer look

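The highest non-senescent value of PSMC3, 363 normalised read counts in replicate A1, stood apart from the other 5 by Dixon's criterion, which chance meets in about 1 in 20 groups. The log2 fold change differed between batches (B minus A, limma interaction) by -0.55 for PSMB1, -0.53 for PSMB6 and -0.81 for PSMG1. The log2 ratio of PSMB9 to PSMB6 changed by 0.80 more in batch B than in batch A (exact permutation test, 2-sided, p 0.00476, the smallest that 420 arrangements can give). Labels were permuted within each batch, so this p tests for no change in either batch and not for an equal change in both. The ratio contains PSMB6, so it is not separate from the interaction of that gene. Its numerator and denominator were over 2-fold apart between the batches without treatment.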

How the results depend on the processing

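Without the batch term 11 members were lower instead of 24 (5 of the 20S core instead of 11, 3 of the 19S particle instead of 7) and 2 exceeded 1.5-fold instead of 4. In batch A alone 3 members passed as higher (PSMA1, PSMB4 and PSMC6), 7 of the 20S core were lower and 2 exceeded 1.5-fold, and PSMB6 (0.011), PSMF1 (0.029) and PSME4 (-0.19) took the other sign. In batch B alone 7 exceeded 1.5-fold and 4 of the 19S particle were lower. With the same total per library 8 exceeded 1.5-fold and 12 of the 19S particle were lower. DESeq2 gave 1 higher member, PSMC6. The cause was not tested.

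With each library left out in turn, 22 to 24 members were lower, 0 to 2 higher (PSMC6 and PSMD10, without non-senescent B3 or B4 or senescent A2 or B4) and 2 to 5 past 1.5-fold (2 without non-senescent B4 or senescent B4, which left PSMB2 and PSMC3). The batch difference held for 0 to 4 members; these fits were chosen after seeing the data. The PSMB9 to PSMB6 ratio changed by 0.15 to 0.34, and by 0.34 (exact permutation p 0.0476) without senescent A2. Under other processing, 310 values of single named genes kept their direction and side of the threshold, 22 kept their direction but no longer passed, and the 3 named above turned. PSMF1 no longer passed in 4 of the 12 fits without a library.

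Same-numbered samples of the groups did not deviate together (correlations of -0.051 to 0.016; 0 of 6 non-senescent libraries correlated best with their own number), so numbers do not pair samples. With the replicate block 23 members were lower, and 4 past 1.5-fold. Low depth limits PSMA8, PSMB10, PSMB11 and TAP2.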
